A study of Homo sapiens with 9 samples.

Results

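The genes described here are those that the deposited annotation assigns to the pathway named Ribosome, 134 of the 20030 genes in the count table. They were taken by that label alone, and 133 of them carried no other pathway. They comprised 87 cytosolic ribosomal protein genes (52 of the large and 35 of the small subunit), 43 mitochondrial ribosomal protein genes (28 and 15), 3 read-through genes that join a ribosomal protein gene to its neighbour, and RSL24D1, which encodes a ribosome assembly factor. All were measured in 9 RNA-seq libraries. MHCC97L is a human hepatocellular carcinoma (HCC) cell line. MHCC97L-Src is a population of these cells selected with rising doses until stably resistant to 4 μmol/L saracatinib, an inhibitor of Src kinase, and MHCC97L-Oxa is a population stably resistant to 2 μmol/L oxaliplatin, a platinum drug that damages DNA. Each line gave 3 libraries, and all lines grew in DMEM with fetal bovine serum. The labels give saracatinib, oxaliplatin or no treatment for each library, and the study describes the resistant lines as made by continuous treatment. The sources describe 1 resistant population per drug and do not state separately whether drug was in the medium at harvest, so a difference belongs to these populations. The study describes its comparison of MHCC97L with MHCC97L-Src as independent experiments, while the labels do not say whether libraries of a line came from separate cultures. The p-values measure the spread between these libraries only.

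Cytosolic ribosomes hold a large and a small subunit, built in the nucleolus from ribosomal RNA and one copy of most ribosomal proteins. The mRNAs of these proteins are among the most abundant in dividing cells and usually begin with a cytosine followed by a run of pyrimidines, the terminal oligopyrimidine (TOP) motif, through which mTOR signalling sets their translation. Mitochondrial ribosomes are a separate particle. They make only the proteins encoded by mitochondrial DNA, and their proteins come from nuclear genes with ordinary mRNA starts.

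The bases at the annotated transcript starts differed between the classes, without separating them fully. The starts used in these cells were not measured. RefSeq promoters (GRCh38.p14, 250 bases before to 50 after the annotated start) were found for 68 cytosolic and 36 mitochondrial members. A start at C followed by at least 4 pyrimidines was present in 44 of the 68 cytosolic promoters (64.7%), in 0 of the 36 mitochondrial promoters, and in 4.04% of all 27305 promoters. Searched on both strands of the 300 bases, CCGGAAG, the core that ETS factors bind, was present in 32.4% of the cytosolic and 36.1% of the mitochondrial promoters, against 10.7% of all promoters. AAGATGGC, the core of YY1 sites, was present in 11.8%, 22.2% and 3.03%, and TATAAA in 10.3%, 2.78% and 11.95%, in the same order. The windows shown run from 40 bases before to 20 bases from the start, with the pyrimidine run at the start in capitals. They show 5 cytosolic genes described in detail, all with such a start. RPL13 and RPL3, also described below, had none at the annotated position and are not shown. The windows also hold the pairs RPS27 and RPS27L and RPL26 and RPL26L1, whose encoded proteins are closely similar, and a mitochondrial gene for contrast.
RPL13A, chr19:49487568-49487627, plus strand: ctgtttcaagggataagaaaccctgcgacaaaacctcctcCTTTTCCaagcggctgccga
RPS16, chr19:39435930-39435989, minus strand: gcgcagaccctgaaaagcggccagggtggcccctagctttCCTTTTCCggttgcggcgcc
RPL39, chrX:119791611-119791670, minus strand: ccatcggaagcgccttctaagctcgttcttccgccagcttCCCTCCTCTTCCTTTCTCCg
RPS6, chr9:19380217-19380276, minus strand: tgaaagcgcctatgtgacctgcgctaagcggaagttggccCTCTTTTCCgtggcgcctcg
RPLP0, chr12:120201092-120201151, minus strand: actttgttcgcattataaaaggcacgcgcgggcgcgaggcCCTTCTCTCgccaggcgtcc
RPS27, chr1:153990722-153990781, plus strand: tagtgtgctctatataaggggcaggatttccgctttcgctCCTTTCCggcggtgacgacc
RPS27L, chr15:63157458-63157517, minus strand: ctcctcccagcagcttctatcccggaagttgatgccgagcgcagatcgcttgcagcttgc
RPL26, chr17:8383174-8383233, minus strand: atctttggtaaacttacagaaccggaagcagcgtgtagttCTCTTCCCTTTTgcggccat
RPL26L1, chr5:172958689-172958748, plus strand: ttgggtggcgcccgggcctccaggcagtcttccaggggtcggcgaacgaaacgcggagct
MRPL3, chr3:131502952-131503011, minus strand: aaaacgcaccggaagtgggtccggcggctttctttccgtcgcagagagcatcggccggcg

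Each library held 16970486 to 18209213 counts on genes. MHCC97L replicate 1 stood apart. Across genes, the Spearman correlation between GC content and a library's deviation from the mean of all libraries was -0.79 in it, against -0.26 to 0.70 in the other libraries, and MHCC97L-Src replicate 2 lay at the opposite end. Class medians and counts, and the members and lists described as resting on this library, are therefore also given without it or with a correction for GC content and length. Of 10 hepatocyte and hepatoma genes, 4 had 0 counts in every library. All 10 together gave 5 to 10 counts per library in MHCC97L, 23 to 39 in MHCC97L-Oxa and 17 to 34 in MHCC97L-Src. The liver label is therefore not borne out by these markers. The 4 epithelial genes were KRT8, KRT18, EPCAM and CDH1. Together they gave 59512 to 107430 counts in MHCC97L, 53555 to 56921 in MHCC97L-Oxa and 82439 to 108217 in MHCC97L-Src. For MHCC97L-Oxa against MHCC97L, edgeR called 0 of the 3 tested with no correction. With the correction it called 3 lower, and without MHCC97L replicate 1 also 3 lower (6.46% and 6.6% of all genes). For MHCC97L-Src it called 1 lower with the correction (5.14%) and 0 in the other fits named. With no correction, edgeR called 1 of 2 endothelial genes higher in MHCC97L-Src (adjusted p = 0.0139, 2.13% of all genes called). In MHCC97L-Oxa it called the 1 hepatocyte gene tested higher (adjusted p = 0.0323, 0.953%). Between the resistant lines, 2 of 2 epithelial and 1 of 2 endothelial genes were called higher in MHCC97L-Src. There 2 of 4 fibroblast and 1 of 2 leukocyte genes were called lower (4.64%). The endothelial list gave 24 to 46 counts in MHCC97L and MHCC97L-Oxa but 207 to 275 for MHCC97L-Src, the fibroblast list 2610 to 4023, 2987 to 3339 and 1435 to 1758 counts in MHCC97L, MHCC97L-Oxa and MHCC97L-Src, and the leukocyte list 876 to 1436, 2622 to 2629 and 1271 to 1535.

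Cytosolic ribosomal protein genes took a larger share of all counts in both resistant lines than in MHCC97L, and mitochondrial ones did not. The cytosolic share was 5.75%, 7.37% and 7.48% in the MHCC97L libraries, 10.05%, 10.7% and 9.84% for MHCC97L-Src, and 9.75%, 9.88% and 10.4% for MHCC97L-Oxa. The lowest resistant library lay above the highest MHCC97L library. The means were 6.87% ± 0.97 (SD, n = 3), 10.2% ± 0.43 and 10.0% ± 0.33. The share of MHCC97L replicate 1 was below that of the other MHCC97L libraries, and the resistant libraries were also above those other libraries. These are shares of counted mRNA, and the amount of mRNA per cell was not measured.

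Mitochondrial members took 0.338%, 0.416% and 0.424% of counts in MHCC97L, with 0.395%, 0.417% and 0.383% for MHCC97L-Src and 0.374%, 0.362% and 0.382% for MHCC97L-Oxa. Both resistant lines overlapped MHCC97L, and every MHCC97L-Src share was above every MHCC97L-Oxa share, the nearest at 0.3827% and 0.3819%. The ratio of cytosolic to mitochondrial counts, which does not depend on the library total, was 16.99, 17.70 and 17.66 in MHCC97L, with 25.5, 25.6 and 25.7 for MHCC97L-Src and 26.05, 27.3 and 27.2 for MHCC97L-Oxa. In this ratio MHCC97L replicate 1 was close to the other MHCC97L libraries. Within cytosolic members, counts on large subunit genes were 1.71, 1.78 and 1.76 times those on small subunit genes in MHCC97L, with 1.89, 1.85 and 1.87 for MHCC97L-Src and 1.85, 1.83 and 1.83 for MHCC97L-Oxa.

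**Figure D1:**
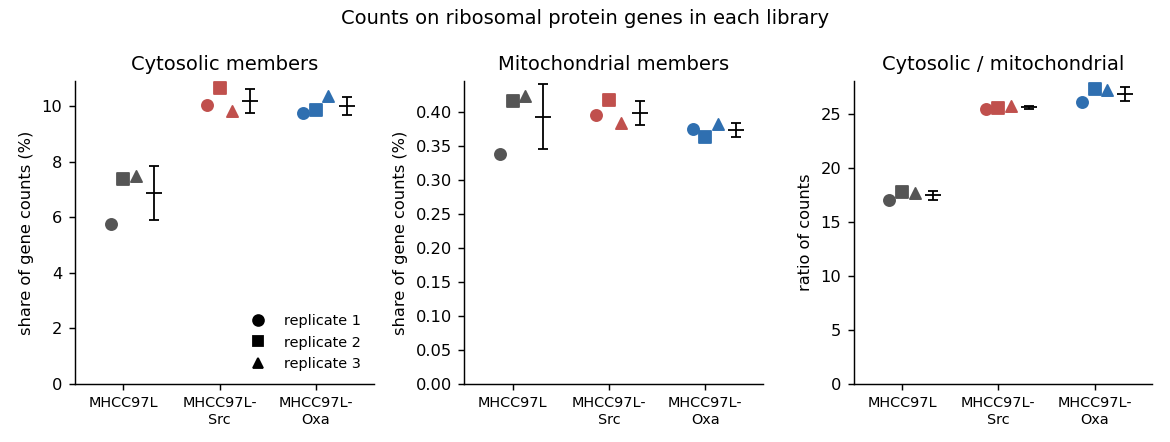
Share of gene counts on cytosolic and on mitochondrial ribosomal protein genes (%), and the ratio of these counts, in each library (symbols are replicates) with the mean and SD of 3 libraries per line. The cytosolic share and the ratio lie higher in all MHCC97L-Src and MHCC97L-Oxa libraries than in MHCC97L (ratio 16.99 to 17.70 against 25.5 to 27.3), and the mitochondrial shares of both overlap those of MHCC97L.

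Of the 87 cytosolic members, 83 passed the filter on low counts. RPL10L and RPL3L, close relatives of RPL10 and RPL3 known from testis and striated muscle, did not: RPL10L had 0 counts in all 9 libraries, and RPL3L had counts in MHCC97L replicate 3 only (0.278 CPM, counts scaled to the same library total). The other untested cytosolic members are Y-linked, and their levels are not given. All 43 mitochondrial members passed. Levels between genes can be compared only per length, in FPKM. By the mean FPKM over 9 libraries, RPLP1, an acidic protein of the ribosomal stalk, was highest at 5290, followed by RPS2 at 4853. This order rests on the length behind the deposited FPKM. The ratio of mean CPM to mean FPKM implies 341 bases for RPLP1, against 1197 in the annotated transcript, and 911 against 985 for RPS2. The highest mitochondrial member, MRPL34, had a mean FPKM of 216, and MRPL1 was lowest at 1.59.

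In MHCC97L-Src against MHCC97L, 72 of 83 cytosolic members had a log2 fold change above 0, against 42.7% of all 12037 genes tested. The median was 0.62 (quartiles 0.28 and 0.80), against -0.16 for all genes. Large and small subunit genes had medians of 0.61 and 0.65. In 55 members all 3 MHCC97L-Src libraries lay above all 3 MHCC97L libraries in CPM, and in 1 (RPS27L) below. Over all genes tested these shares were 18.3% and 12.2%. No member passed the test. By edgeR's quasi-likelihood test with Benjamini-Hochberg adjustment over all genes, 0 cytosolic members had an adjusted p under 0.05 (lowest 0.094), with 2.13% of all genes called. At an unadjusted p under 0.05, 37 members were higher and 0 lower, against 9.4% of all genes higher and 20.1% lower. DESeq2's Wald test called 13 members higher, with 6.01% of all genes called higher.

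RPL13 (GRCh38 chr16:89560657-89566828, plus strand), a large subunit protein, had the largest log2 fold change of cytosolic members in MHCC97L-Src before correction. Its CPM was 615, 1024 and 1121 in MHCC97L, against 1699, 2220 and 1735 for MHCC97L-Src. The lowest resistant library was above the highest MHCC97L library, and the log2 fold change was 1.10 ± 0.33 (SE, adjusted p = 0.104, edgeR). RPL13A, a large subunit protein also known for silencing inflammatory mRNAs once released from the ribosome, had 1008, 1640 and 1790 CPM in MHCC97L, against 2811, 3244 and 2702 for MHCC97L-Src. Again the groups did not overlap, with a log2 fold change of 1.04 ± 0.32 (SE, adjusted p = 0.108, edgeR). RPS16, a small subunit protein of the head domain, had 313, 527 and 613 CPM in MHCC97L, against 861, 1062 and 819 for MHCC97L-Src. Its log2 fold change was 0.98 ± 0.33 (SE, adjusted p = 0.115, edgeR), and again no library overlapped.

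The lowest cytosolic members with usable counts were RPL7 and RPL6, both large subunit proteins. RPL7 had 420, 144 and 206 CPM in MHCC97L, against 143, 109 and 198 for MHCC97L-Src, and RPL6 had 1453, 454 and 519 against 469, 352 and 640. In both genes MHCC97L replicate 1 was far above the other MHCC97L libraries and the rest overlapped. The log2 fold changes were -0.69 ± 0.36 for RPL7 and -0.64 ± 0.41 for RPL6 (SE, adjusted p = 0.228 and 0.313, edgeR). Without MHCC97L replicate 1 they were -0.17 and 0.048. The direction also turned with the GC and length correction for RPL7 (0.063, and 0.27 on coding sequence) and on coding sequence for RPL6 (0.12).

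In MHCC97L-Oxa against MHCC97L, the same 3 MHCC97L libraries served as controls, so this comparison is not independent of the one with MHCC97L-Src. Here 77 of 83 cytosolic members had a log2 fold change above 0, against 39.2% of all 12064 genes tested. The median was 0.54 (quartiles 0.36 and 0.67), against -0.19 for all genes, and 0.54 in each subunit. In 60 members the MHCC97L-Oxa libraries all lay above the MHCC97L libraries and in 0 below, against 19.1% and 10.5% of all genes. Again edgeR called 0 members (lowest adjusted p 0.058), with 0.953% of all genes called. At an unadjusted p under 0.05, 35 were higher and 1 (RPL36A) lower, against 8.84% and 13.6% of all genes. DESeq2 called 11 higher, with 4.73% of all genes called higher. Without MHCC97L replicate 1, edgeR called 63 members higher and 1 lower, and 11.9% and 6.6% of all genes. Without MHCC97L replicate 2 it called 16 higher and 1 lower, and 5.2% and 16.9% of all genes. All 16 were among the 63.

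The count of calls depended on the fit, and so did the share of all genes called. In MHCC97L-Src, edgeR called 10 cytosolic members higher without MHCC97L replicate 1 (3.58% of all genes) and 12 higher and 1 lower without MHCC97L replicate 2 (5.62% and 22.2%). With all 9 libraries in 1 fit it called 25 cytosolic members higher (7.05%) and 1 mitochondrial member lower (8.93%), and in MHCC97L-Oxa 6 cytosolic members higher (3.25%). The replicate block called 1 mitochondrial member lower in MHCC97L-Src (5.66%). In MHCC97L-Oxa, scaling to total counts called 3 cytosolic members higher (1.44%) and limma on FPKM called 2 with a pseudocount of 1 (1.87%) and 2 with 0.1 (1.82%).

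**Figure D2:**
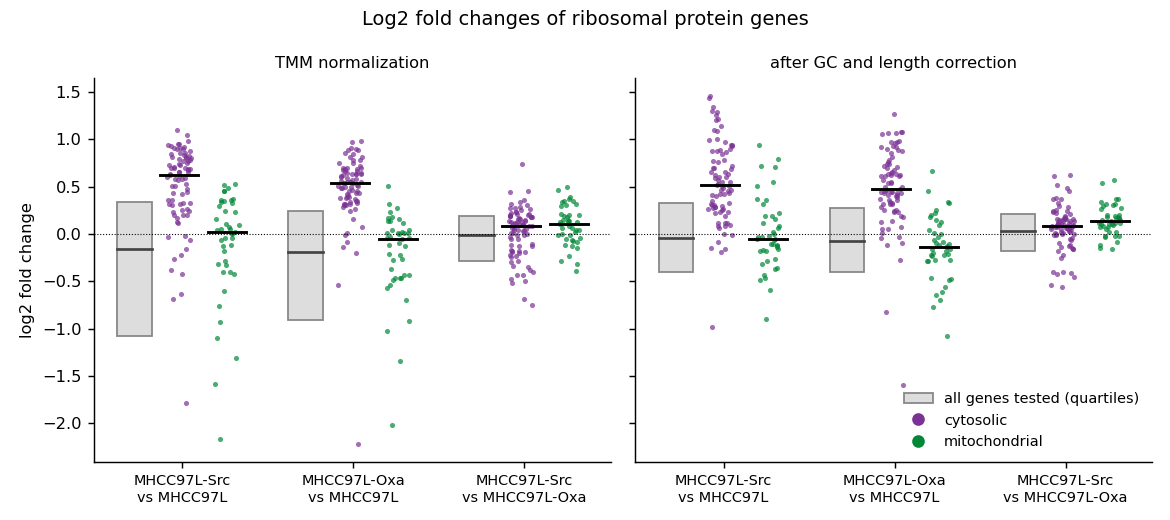
Log2 fold change of each tested member (points; black bars are medians of 83 cytosolic and 43 mitochondrial members) beside the quartiles and median of all genes tested (grey boxes), before and after correction for GC content and length. Cytosolic medians lie at 0.62 and 0.54 against MHCC97L before correction and at 0.51 and 0.47 after it, and those of mitochondrial members between -0.13 and 0.02.

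RPL13A and RPL13 again led before correction, with 2838, 2889 and 3015 CPM for RPL13A and 1742, 1774 and 1918 for RPL13 in MHCC97L-Oxa. Their log2 fold changes were 0.98 ± 0.29 and 0.97 ± 0.29 (SE, adjusted p = 0.164 and 0.165, edgeR). RPL39, a very short protein that lines the exit tunnel, had 244, 280 and 281 CPM in MHCC97L, 448, 519 and 535 in MHCC97L-Oxa, and 377, 352 and 416 in MHCC97L-Src. The 3 lines did not overlap, with MHCC97L-Oxa highest. The log2 fold change against MHCC97L was 0.91 ± 0.19 in MHCC97L-Oxa and 0.57 ± 0.21 in MHCC97L-Src (SE, adjusted p = 0.0787 and 0.13, edgeR). RPS26, which contacts mRNA upstream of the start codon, was the lowest member with usable counts, with 314, 462 and 465 CPM in MHCC97L and 349, 352 and 379 in MHCC97L-Oxa. These overlapped, and its log2 fold change was -0.20 ± 0.24 (SE, adjusted p = 0.603, edgeR).

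Of the stalk proteins, which recruit elongation factors, RPLP0 had 2585, 4158 and 4295 CPM in MHCC97L, with 5718, 6152 and 5305 for MHCC97L-Src and 5577, 5449 and 5633 for MHCC97L-Oxa. RPLP1 had 807, 1337 and 1513, then 2137, 2572 and 1951, then 1933, 1935 and 2059. RPLP2 had 722, 1204 and 1215, then 1246, 1607 and 1311, then 1327, 1287 and 1370. In CPM, both resistant lines lay above every MHCC97L library in all 3 genes. The margin was smallest in RPLP2, at 1215 against 1246 CPM for the nearest libraries. RPLP2 is given by level only, for the reasons listed at the end. Its higher CPM is therefore not claimed to hold across the settings.

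RPL5 and RPL11, which with 5S ribosomal RNA bind MDM2 when ribosome assembly is disturbed, differed in how MHCC97L replicate 1 behaved. RPL5 had 879, 404 and 379 CPM in MHCC97L, with 699, 607 and 807 for MHCC97L-Src and 731, 834 and 787 for MHCC97L-Oxa. RPL11 had 979, 909 and 842, then 1099, 984 and 1185, then 1162, 1120 and 1232. RPL5 overlapped only through MHCC97L replicate 1. Its log2 fold changes of 0.44 ± 0.31 and 0.54 ± 0.30 (SE, adjusted p = 0.356 and 0.284, edgeR) became 0.90 and 1.06 without that library (adjusted p = 0.016 and 0.0015). RPL11 was above MHCC97L in every resistant library, with log2 fold changes of 0.33 ± 0.21 and 0.38 ± 0.18 (SE, adjusted p = 0.309 and 0.247, edgeR).

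RPS6, the small subunit protein phosphorylated by S6 kinase, followed RPL5: 1132, 572 and 534 CPM in MHCC97L, with 798, 703 and 996 for MHCC97L-Src and 986, 1024 and 1147 for MHCC97L-Oxa. Without MHCC97L replicate 1 its log2 fold change was 0.64 in MHCC97L-Src and 0.98 in MHCC97L-Oxa (adjusted p = 0.0712 and 0.003, edgeR). RPS14 and RPS19, small subunit proteins whose loss underlies 5q- syndrome and Diamond-Blackfan anaemia, were above MHCC97L in every resistant library. RPS19 had 214, 372 and 403 CPM in MHCC97L, with 551, 668 and 554 for MHCC97L-Src and 580, 558 and 606 for MHCC97L-Oxa. RPS14 had 811, 1266 and 1299, then 1848, 2046 and 1760, then 1747, 1690 and 1784. The log2 fold changes were 0.90 and 0.82 for RPS19 and 0.81 and 0.63 for RPS14.

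RPS27A is made as a fusion with ubiquitin and FAU as a fusion with a ubiquitin-like protein. FAU had 175, 285 and 329 CPM in MHCC97L, with 364, 478 and 345 for MHCC97L-Src and 359, 371 and 373 for MHCC97L-Oxa. RPS27A had 678, 493 and 461, then 466, 408 and 613, then 661, 748 and 791. Both resistant lines lay above every MHCC97L library in FAU, and in RPS27A both overlapped MHCC97L while MHCC97L-Src lay below MHCC97L-Oxa. The members of highest mean CPM after RPLP0 were RPS2 and RPL37, an order not adjusted for length. RPS2, a small subunit protein, had 2341, 4025 and 4396 CPM in MHCC97L, with 4939, 6196 and 4433 for MHCC97L-Src and 4287, 4517 and 4659 for MHCC97L-Oxa. RPL37, a large subunit protein, had 1966, 3156 and 3269, then 4963, 4961 and 4340, then 4143, 4400 and 4562. RPL37 was above MHCC97L in every resistant library, with log2 fold changes of 0.83 ± 0.32 and 0.64 ± 0.28 (SE, adjusted p = 0.135 and 0.226, edgeR), and RPS2 in every MHCC97L-Src library. RPL10, a large subunit protein added late in assembly, had 354, 579 and 691 CPM, then 781, 957 and 752, then 783, 760 and 824. RPL38, a large subunit protein known for its part in the translation of Hox mRNAs, had 319, 411 and 389, then 444, 428 and 458, then 413, 437 and 485. In both genes every resistant library was above MHCC97L. Of members outside these roles, RPSA, which also acts as a laminin receptor, had 1401, 2343 and 2580 CPM in MHCC97L, with 2639, 3110 and 2416 for MHCC97L-Src and 2574, 2565 and 2753 for MHCC97L-Oxa.

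GC content moved with the fold changes and was therefore checked. Coding sequences of the tested members had a median GC of 51.1% (cytosolic) and 53.0% (mitochondrial), against 53.1% for all genes tested. Across cytosolic members, the Spearman correlation between coding GC and log2 fold change was 0.64 in MHCC97L-Src (n = 83 genes) and 0.21 in MHCC97L-Oxa. Across mitochondrial members it was 0.75 and 0.55 (n = 43), and across all genes 0.69 and 0.63. All these points share the 6 libraries of a comparison.

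At matched GC the cytosolic members lay above the other genes. Among genes with coding GC under 48.1%, the median log2 fold change in MHCC97L-Src was 0.26 for 27 cytosolic members, -0.61 for 13 mitochondrial members and -1.33 for all genes in this band. Between 48.1% and 58.0% the medians were 0.68, 0.01 and -0.09, and above 58.0% they were 0.79, 0.35 and 0.33. In MHCC97L-Oxa the medians were 0.49, -0.54 and -1.08 in the low band, 0.56, -0.04 and -0.13 in the middle band, and 0.53, 0.01 and 0.19 in the high band. Cytosolic members were above all genes of their band in each, and mitochondrial members were below all genes only in the high band of MHCC97L-Oxa.

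**Figure D3:**
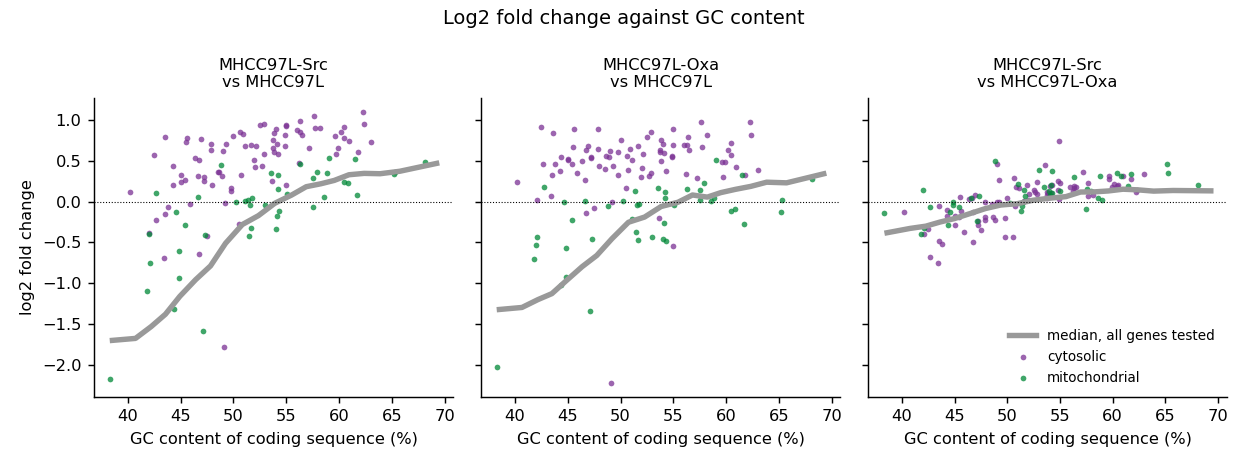
Log2 fold change of each tested member against the GC content of its coding sequence (%), with the median of all genes tested in 20 equally filled GC bins (grey line). Against MHCC97L the cytosolic members lie mostly above the grey line at every GC content, and in the comparison of the resistant lines they lie along it.

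With GC content and transcript length corrected in each library, the cytosolic medians were 0.51 in MHCC97L-Src and 0.47 in MHCC97L-Oxa, against -0.05 and -0.07 for all genes, and 76 of 83 members were above 0 in each. Across cytosolic members the Spearman correlation with coding GC then changed sign, to -0.16 in MHCC97L-Src and -0.42 in MHCC97L-Oxa (n = 83 genes), and that with transcript GC went from 0.48 to -0.48 and from 0.10 to -0.64. The corrected medians in the low, middle and high GC bands were 0.60, 0.53 and 0.28 in the former and 0.70, 0.44 and 0.24 in the latter, so within the class the correction placed low-GC members highest. The calls that follow were made on these values. With this correction edgeR called 11 cytosolic members higher in MHCC97L-Src and 17 in MHCC97L-Oxa, and 0 lower in both. Over all genes 6.02% and 6.83% were called higher. Among the 11 were RPL3, RPL5, RPL10A, RPL13, RPL13A, RPL29, RPS6, RPS16, RPS18 and RPS19. In MHCC97L-Oxa the calls comprised all 11 and RPL4, RPL26, RPS3A, RPS7, RPS12 and RPS27A. The correction on coding sequence, added after the values were seen, called 3 and 7, with 4.42% and 4.82% of all genes called higher. Of the 11 and 17, 6 and 6 were also called by DESeq2 without the correction, and 6 and 17 by edgeR without MHCC97L replicate 1.

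With the replicate block added to the correction, 1 cytosolic member was called higher in MHCC97L-Src and 8 in MHCC97L-Oxa (1.43% and 3.71% of all genes), and 3 mitochondrial members lower in MHCC97L-Oxa (2.4%). With the correction but without MHCC97L replicate 1, a fit also added after the values were seen, 13 and 30 cytosolic members were called higher (5.7% and 8.98% of all genes), and 6 and 11 mitochondrial members lower (6.28% and 11.5%). The cytosolic medians of this fit, given at the end, were lower in both lines than with the correction alone.

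RPL3 (GRCh38 chr22:39312882-39320389, minus strand), a large subunit protein that reaches toward the peptidyl transferase centre, was among those called with the correction in both lines. It had 1364, 1994 and 1979 CPM in MHCC97L, with 3301, 3163 and 3209 for MHCC97L-Src and 3291, 3195 and 3352 for MHCC97L-Oxa. The resistant libraries lay close together and well above MHCC97L. With the correction the log2 fold changes were 0.59 ± 0.10 and 0.64 ± 0.09 (SE, adjusted p = 0.0128 and 0.00677, edgeR), and without it 0.92 ± 0.28 and 0.88 ± 0.26 (adjusted p = 0.108 and 0.161). RPL5 gave 0.99 and 0.93 with the correction (adjusted p = 0.0042 and 0.00388), RPL13 0.94 and 0.92 (0.029 and 0.017), and RPS6 1.01 and 1.06 (0.0281 and 0.0206). By contrast, FAU gave 0.11 and 0.12 and RPS2 0.12 and 0.01 with the correction, against 0.66 and 0.48, and 0.60 and 0.32, without it.

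Members scored with and without the TOP start at the annotated position were close in their medians. Among cytosolic members with a promoter entry, the median log2 fold change in MHCC97L-Src was 0.59 for 44 genes with the start and 0.58 for 23 without. In MHCC97L-Oxa it was 0.54 and 0.44. RPL13 and RPL3, for example, had no such start at the annotated position, while RPL13A and RPS16 did. The start was scored at the annotated base only. Some genes scored without it, such as RPL10A and RPL9, have a pyrimidine run a few bases further on. The split therefore does not cleanly separate mRNAs with the motif from those without, and the effect of the motif was not tested.

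The resistant lines were compared with each other without the MHCC97L libraries. Cytosolic members differed little as a class, with a median log2 difference (MHCC97L-Src minus MHCC97L-Oxa) of 0.08 against -0.02 for all 11994 genes tested. In 4 members MHCC97L-Src lay above MHCC97L-Oxa in all libraries and in 11 below, against 13.2% and 14.4% of all genes. Again edgeR called 0 members (lowest adjusted p 0.057, against 4.64% of all genes called). At an unadjusted p under 0.05, 4 were higher and 12 lower, against 9.75% and 9.76% of all genes, and DESeq2 called 3 lower, with 3.73% of all genes called lower.

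The lowest members were of low GC. RPL7 had 143, 109 and 198 CPM in MHCC97L-Src against 191, 291 and 301 in MHCC97L-Oxa, RPS3A, a small subunit protein, 658, 503.9 and 1071 against 1000, 1249 and 1428, and RPS27A 466, 408 and 613 against 661, 748 and 791. RPS27A did not overlap and the others did, each through MHCC97L-Src replicate 3. The log2 differences were -0.76 ± 0.20 for RPL7, -0.68 ± 0.22 for RPS3A and -0.52 ± 0.13 for RPS27A (SE, adjusted p = 0.069, 0.119 and 0.0571, edgeR). RPS26 was higher in all MHCC97L-Src libraries, at 478, 520 and 411 CPM against 349, 352 and 379, with a log2 difference of 0.45 ± 0.13 (SE, adjusted p = 0.0963, edgeR). The Spearman correlation with coding GC across the 83 members was 0.77 before and 0.32 after correction. With the correction RPL7 (-0.56, adjusted p = 0.0482) and RPS27A (-0.45, adjusted p = 0.0428) were called lower in MHCC97L-Src, and 5.24% of all genes were called lower. Without MHCC97L-Src replicate 3, and with no correction, 9 cytosolic members were called higher and 9 lower, with 6.55% and 6.79% of all genes.

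Other fits of the resistant lines also called cytosolic members lower in MHCC97L-Src. They numbered 2 with no filter on low counts (2.25% of all genes), 2 with the replicate block (2.08%), 2 with block and correction (2.78%), and 1 with scaling to total counts (2.78%). With limma on FPKM it was 1 at a pseudocount of 1 (2.48%) and 1 at 0.1 (2.46%). Without MHCC97L-Src replicate 2 it was 4 (4.83%), and without MHCC97L-Oxa replicate 1 it was 1 (1.28%).

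Mitochondrial members had medians of 0.02 in MHCC97L-Src and -0.05 in MHCC97L-Oxa, with 23 and 17 of 43 above 0 (42.7% and 39.2% of all genes). By edgeR 0 were called in either (lowest adjusted p 0.112 and 0.196). At an unadjusted p under 0.05, 0 were higher and 4 and 5 lower, against 9.4% and 8.84% of all genes higher and 20.1% and 13.6% lower. In 2 and 1 members the resistant line lay above MHCC97L in all libraries, and in 5 of each comparison below, against 18.3% and 19.1% of all genes above and 12.2% and 10.5% below. DESeq2 called 1 lower in MHCC97L-Src, with 11.6% of all genes called lower. With MHCC97L replicate 1 left out, edgeR called 0 in MHCC97L-Src, and 1 higher and 5 lower in MHCC97L-Oxa (11.9% and 6.6% of all genes). With MHCC97L replicate 2 left out it called 3 lower in each, against 22.2% and 16.9% of all genes. The lowest members were large subunit genes of low GC. MRPL1 had 10.3, 1.52 and 3.89 CPM in MHCC97L, with 0.75, 0.825 and 1.65 for MHCC97L-Src and 0.659, 1.39 and 1.63 for MHCC97L-Oxa. MRPL19 had 43.9, 8.84 and 11.7, then 8.02, 3.89 and 8.08, then 6.64, 9.43 and 8.16, and MRPL3 had 239, 66.7 and 74.0, then 44.5, 27.4 and 71.9, then 58.4, 63.2 and 57.8. In all 3 genes MHCC97L replicate 1 was highest by a wide margin.

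The log2 fold changes in MHCC97L-Src and MHCC97L-Oxa were -2.17 and -2.02 for MRPL1, -1.58 and -1.34 for MRPL19, and -1.31 and -1.02 for MRPL3. After GC and length correction they were -0.90 and -1.08, -0.17 and -0.23, and -0.36 and -0.28. Without MHCC97L replicate 1, and with no correction, they were -1.26 and -1.07 for MRPL1, -0.58 and -0.29 for MRPL19, and -0.52 and -0.18 for MRPL3. With the correction edgeR called 3 mitochondrial members lower in MHCC97L-Src and 7 in MHCC97L-Oxa, and 0 higher, against 5.14% and 6.46% of all genes called lower. MRPS15 and MRPS7, small subunit proteins, were called in both. MRPS15 had 117, 142 and 122 CPM in MHCC97L, with 102, 87.6 and 103 for MHCC97L-Src and 95.8, 90.6 and 88.0 for MHCC97L-Oxa, below MHCC97L in every resistant library. Its corrected log2 fold changes were -0.59 and -0.70 (adjusted p = 0.0148 and 0.00642, edgeR), and its uncorrected ones -0.32 and -0.46 (adjusted p = 0.345 and 0.221). The correction on coding sequence called 0 mitochondrial members in either comparison.

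At the upper end, MRPL10, a large subunit stalk protein, had 56.7, 88.6 and 90.9 CPM in MHCC97L, with 108, 114 and 106 for MHCC97L-Src and 115, 110 and 111 for MHCC97L-Oxa. Its groups did not overlap, and the log2 fold changes were 0.53 ± 0.28 and 0.51 ± 0.26 (SE, adjusted p = 0.228 and 0.259, edgeR). MRPL23 and MRPL34, large subunit proteins, had log2 fold changes of 0.52 and 0.48 for MHCC97L-Src, and 0.32 and 0.28 for MHCC97L-Oxa, with overlapping libraries. With the correction on coding sequence they were -0.07 and -0.27, and -0.10 and -0.31. MRPL12, the partner of MRPL10 in the stalk, had 92.9, 171 and 194 CPM in MHCC97L, with 163, 194 and 158 for MHCC97L-Src and 147, 135 and 150 for MHCC97L-Oxa. MRPL24 had 179, 291 and 307, then 306, 348 and 278, then 275, 274 and 297, and MRPL17 118, 191 and 197, then 189, 222 and 183, then 187, 182 and 189. In these 3 genes every resistant library lay above MHCC97L replicate 1 and both lines overlapped MHCC97L. In MRPL12 every MHCC97L-Src library was above every MHCC97L-Oxa library.

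Between the resistant lines, mitochondrial members had a median log2 difference of 0.11, against -0.02 for all genes. The mitochondrial median was smaller with scaling to total counts and with limma on FPKM, as given at the end. In all MHCC97L-Src libraries 7 were higher and 2 lower, against 13.2% and 14.4% of all genes. By edgeR 0 were called (lowest adjusted p 0.115), 6 were higher and 0 lower at an unadjusted p under 0.05 (9.75% and 9.76% of all genes), and 0 passed with DESeq2. MRPS6, a small subunit protein, had 36.1, 38.7 and 37.99 CPM in MHCC97L-Src against 28.9, 22.1 and 31.7 in MHCC97L-Oxa, and MRPL4, a large subunit protein, 185, 216 and 162 against 137, 139 and 150. Neither overlapped, and the log2 differences were 0.50 ± 0.17 and 0.46 ± 0.15 (SE, adjusted p = 0.145 and 0.115, edgeR). With the GC and length correction MRPL4 was called higher, at 0.31 (adjusted p = 0.0249), with 4.79% of all genes called higher. MRPL20, a large subunit protein, had 76.4, 87.2 and 70.6 CPM against 61.7, 59.8 and 65.1, without overlap, and a log2 difference of 0.39 ± 0.14 (SE, adjusted p = 0.166, edgeR). MRPS10, MRPL13 and MRPL3 were at -0.39, -0.32 and -0.28, and in these 3 genes the libraries overlapped. With MHCC97L-Src replicate 3 left out, 5 mitochondrial members were called higher and 1 lower, against 6.55% and 6.79% of all genes.

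Paralogs, which encode near copies of a ribosomal protein, did not always follow their parent gene. RPS27, a small subunit protein, had 485, 808 and 817 CPM in MHCC97L, with 1172, 1250 and 1098 for MHCC97L-Src and 1180, 1136 and 1245 for MHCC97L-Oxa. Its paralog RPS27L, a p53 target, had 106, 95.0 and 91.4, then 73.7, 63.1 and 76.5, then 94.2, 102 and 96.0. RPS27 was above MHCC97L in both resistant lines, while RPS27L was below MHCC97L in MHCC97L-Src and within its range in MHCC97L-Oxa. For RPS27L in MHCC97L-Src the log2 fold change was -0.39 ± 0.21 (SE, adjusted p = 0.242, edgeR), but 0.33 after GC and length correction, so its direction depends on that choice. Against MHCC97L-Oxa, RPS27L was at -0.40 ± 0.11 (SE, adjusted p = 0.0696, edgeR), and -0.16 after correction.

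RPL22, an RNA-binding large subunit protein, had 440, 412 and 348 CPM in MHCC97L, with 452, 367 and 502 for MHCC97L-Src and 516, 503 and 518 for MHCC97L-Oxa, and its paralog RPL22L1 47.1, 45.6 and 37.2, then 46.0, 36.9 and 51.3, then 46.8, 54.2 and 51.1. RPL26, known for binding the p53 mRNA, had 900, 708 and 679, then 903, 669 and 998, then 984, 1138 and 1108, and its paralog RPL26L1 89.3, 113 and 114, then 101, 87.3 and 111, then 105, 101 and 107. Only RPL22 and RPL26 lay above every MHCC97L library in MHCC97L-Oxa. Their log2 fold changes there were 0.38 ± 0.18 and 0.52 ± 0.19 (SE, adjusted p = 0.244 and 0.201, edgeR), and in MHCC97L-Src 0.20 and 0.24. RPL36AL, the paralog of RPL36A, had 94.7, 46.8 and 57.3 CPM in MHCC97L, with 45.9, 41.5 and 52.2 for MHCC97L-Src and 49.0, 63.5 and 70.9 for MHCC97L-Oxa. Most cytosolic members have annotated pseudogenes by name (78 of the 87 have at least 1, 1141 in all). Only 1 ribosomal protein pseudogene is among the genes counted. Sequences of pseudogenes and members were not compared. Reads could be shared or lost, so counts of these genes are uncertain to that extent.

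**Figure D4:**
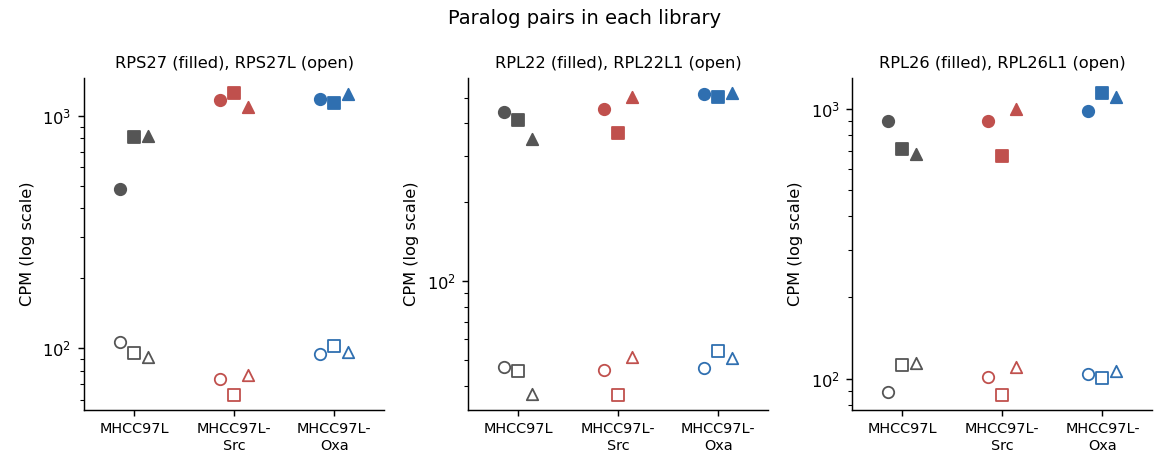
CPM on a log scale in each library (symbols are replicates, as in the plot of shares) for 3 paralog pairs, the parent gene filled and the paralog open. CPM is not adjusted for length, so only heights within a gene compare; RPS27L is lowest in MHCC97L-Src (63.1 to 76.5) where RPS27 is above MHCC97L.

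For 3 cytosolic members the counts could not be used. RPS10 had 21 to 61 counts per library, RPL17 35 to 95 and RPL36A 6 to 95, although their FPKM was 269.3 to 709, 125 to 260 and 10.8 to 22.1. Each overlaps a read-through gene, RPS10-NUDT3, RPL17-C18orf32 and RPL36A-HNRNPH2, which had 0 counts in all 9 libraries and FPKM of 68.3 to 187, 18.4 to 36.3 and 72.1 to 103. In the FPKM values RPS10 was 269.3, 440 and 466 in MHCC97L, with 584, 709 and 570 for MHCC97L-Src and 527, 529 and 606 for MHCC97L-Oxa, higher in both resistant lines without overlap, whereas its count-based CPM was 1.18 to 3.59 with no such order. These 3 genes stay in the counts of 83 tested members given above, RPL36A as the lowest of them in both comparisons with MHCC97L. How reads on the overlapping genes were assigned is not given in the sources used here.

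**Figure D5:**
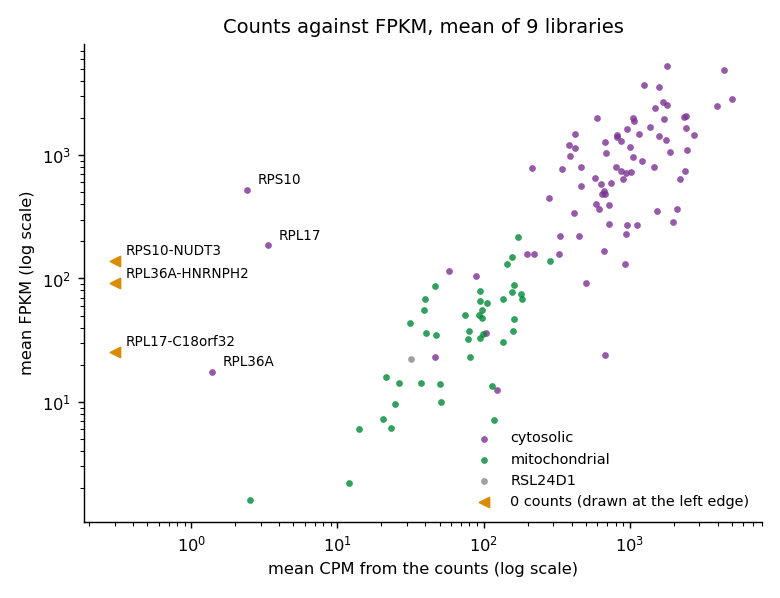
Mean CPM from the counts against mean FPKM over 9 libraries, both on log scales, for each member with an FPKM above 0. RPS10, RPL17 and RPL36A lie far left of other members of like FPKM, and their read-through genes have 0 counts (drawn at the left edge).

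Other genes of ribosome production and translation were taken from general lists, chosen with earlier results of these data known. NPM1 stands both among the biogenesis factors and among the TOP mRNAs. Ribosome biogenesis factors were mostly below 0. Of 46 tested, 9 were above 0 in MHCC97L-Src and 3 in MHCC97L-Oxa, against 42.7% and 39.2% of all genes. Their median log2 fold changes were -0.53 and -0.75. By edgeR 0 were called in either comparison, and at an unadjusted p under 0.05, 1 was higher and 18 lower in MHCC97L-Src, and 0 higher and 19 lower in MHCC97L-Oxa, against 20.1% and 13.6% of all genes lower. MHCC97L replicate 1 was far above the other MHCC97L libraries in several of them, such as NCL, a nucleolar protein, at 817, 155 and 259 CPM. Without that library the medians were -0.33 and -0.50, against 0.49 and 0.53 for cytosolic members, and edgeR called 0 in MHCC97L-Src and 1 higher and 16 lower in MHCC97L-Oxa (11.9% and 6.6% of all genes). With the GC and length correction the medians were -0.44 and -0.65, with 1 called higher (MYC) and 5 lower in MHCC97L-Src and 16 lower in MHCC97L-Oxa, against 6.02% of all genes higher and 5.14% lower in the former and 6.46% lower in the latter. NOP2, a methyltransferase of large subunit rRNA, had 270, 339 and 331 CPM in MHCC97L, with 240, 214 and 256 for MHCC97L-Src and 202, 195 and 211 for MHCC97L-Oxa, below MHCC97L in every library, with corrected log2 fold changes of -0.56 and -0.76 (adjusted p = 0.014 and 0.0039, edgeR). MYC, a transcription factor that drives ribosome production, had 547, 661 and 597 CPM, then 994, 799 and 1045, then 860, 819 and 768. Its log2 fold changes were 0.71 ± 0.23 and 0.45 ± 0.20 (SE, adjusted p = 0.112 and 0.228), and its corrected ones 0.54 and 0.30 (adjusted p = 0.015 and 0.0505). Between the resistant lines the median was 0.16 and BOP1, a large subunit assembly factor, was called higher in MHCC97L-Src (0.62 ± 0.15, adjusted p = 0.0447, edgeR), at 104, 125 and 102 CPM against 77.4, 66.7 and 79.5, with 4.64% of all genes called. With the correction 6 were called higher and 0 lower, against 4.79% of all genes higher.

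Of 21 elongation factors and other TOP mRNAs, 8 were above 0 in MHCC97L-Src and 11 in MHCC97L-Oxa, against 42.7% and 39.2% of all genes. Their medians were -0.34 and 0.03, and edgeR called 0. At an unadjusted p under 0.05, 5 were higher and 3 lower in the former, and 5 and 0 in the latter. Of all genes, 9.4% were higher and 20.1% lower in the former, and 8.84% and 13.6% in the latter. With the correction 6 were called higher in each and 0 lower, against 6.02% and 6.83% of all genes higher. Leaving out MHCC97L replicate 1, the medians were 0.29 and 0.51, and edgeR called 4 and 11 higher and 0 lower (3.58% and 11.9% of all genes higher). Between the resistant lines the median was -0.17, with 0 called and, at an unadjusted p under 0.05, 0 higher and 6 lower (9.76% of all genes lower). With the correction VIM, an intermediate filament protein, was called lower in MHCC97L-Src (-0.59, adjusted p = 0.0354, edgeR), with 5.24% of all genes called lower. EEF2, which moves the ribosome along the mRNA, had 2818, 4249 and 4483 CPM in MHCC97L, with 7169, 7995 and 6545 for MHCC97L-Src and 6745, 7318 and 7146 for MHCC97L-Oxa. Its log2 fold changes were 0.98 ± 0.32 and 0.88 ± 0.28 (SE, adjusted p = 0.114 and 0.186, edgeR), and 0.67 and 0.72 with the correction (0.0174 and 0.00843). EEF1A1, which delivers aminoacyl-tRNA, had 6645, 2753 and 2185, then 2042, 1120 and 3605, then 3282, 3289 and 3345, and the lines overlapped. Of 39 mitochondrial ribosomal proteins that lack the Ribosome annotation, the medians were -0.09, -0.09 and 0.05 in the 3 comparisons, and of 24 other mitochondrial translation genes -0.41, -0.29 and -0.04. Again edgeR called 0 of either list. At an unadjusted p under 0.05, 0, 0 and 3 of the former were higher and 4, 0 and 3 lower, and 0, 1 and 3 of the latter higher and 6, 4 and 1 lower. Of all genes, 9.4%, 8.84% and 9.75% were higher and 20.1%, 13.6% and 9.76% lower. With the correction 4 of the former were called lower in each comparison with MHCC97L and 1 higher between the resistant lines, and 1 of the latter was called higher in MHCC97L-Oxa. Of all genes 5.14% and 6.46% were called lower in the comparisons with MHCC97L, 6.83% higher in MHCC97L-Oxa, and 4.79% higher between the resistant lines. Without MHCC97L replicate 1 and with no correction, edgeR called 0 of either list in MHCC97L-Src. In MHCC97L-Oxa it called 5 of the former lower, and 1 of the latter higher and 1 lower (11.9% of all genes higher and 6.6% lower).

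The 9 genes that respond when ribosome assembly or DNA is disturbed did not move together. In the 3 comparisons 5, 5 and 2 of the 9 were above 0, against 42.7%, 39.2% and 48.1% of all genes. Their median log2 fold changes were 0.06, 0.14 and -0.22. By edgeR 1, 2 and 1 were called, all higher, against 2.13%, 0.953% and 4.64% of all genes called. GDF15 and BBC3, described below, were among those called. With the correction 2, 3 and 1 were called higher (6.02%, 6.83% and 4.79% of all genes), and BBC3 was called lower in MHCC97L-Src than in MHCC97L-Oxa (-0.57, adjusted p = 0.0242, edgeR, with 5.24% of all genes called lower). When MHCC97L replicate 1 was left out, 2 were called higher in MHCC97L-Src and 3 in MHCC97L-Oxa, against 3.58% and 11.9% of all genes. GDF15, a secreted stress protein, had 12.1, 14.4 and 13.9 CPM in MHCC97L, with 80.2, 100.1 and 89.9 for MHCC97L-Src and 47.6, 51.4 and 46.4 for MHCC97L-Oxa. It rose by 2.81 ± 0.28 and 1.85 ± 0.26 on the log2 scale (SE, adjusted p = 0.00597 and 0.0271, edgeR) and differed by 0.95 ± 0.14 between the resistant lines (adjusted p = 0.00437). BBC3, a pro-apoptotic p53 target, had 4.47, 5.52 and 5.17 CPM, then 13.7, 15.1 and 14.2, then 18.4, 24.2 and 20.5, and rose by 2.06 ± 0.34 in MHCC97L-Oxa (SE, adjusted p = 0.039, edgeR). In MHCC97L-Src its log2 fold change was 1.57 ± 0.39 (adjusted p = 0.0807). RSL24D1, the assembly factor annotated to the pathway, had 85.9, 14.4 and 29.7 CPM in MHCC97L, with 19.8, 11.7 and 27.9 for MHCC97L-Src and 23.1, 36.2 and 38.04 for MHCC97L-Oxa, with log2 fold changes of -1.03 ± 0.58 and -0.35 ± 0.55 (SE, adjusted p = 0.255 and 0.701, edgeR). With the correction they were 0.38 and 0.67, and without MHCC97L replicate 1 -0.10 and 0.62, so its direction depends on the correction and on that library.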

How the data were processed

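Poly(A) RNA of 9 libraries was sequenced with a stranded kit. Per the submitters' processing notes, Trimmomatic 0.36, HISAT2 2.2.1.0 and GRCh38.p12 were used; the counter and annotation are not given in the sources used here. The authors deposited raw counts per gene and, separately, FPKM values normalized by transcript length and library size. Members and lists were chosen with earlier results of these data known. CPM was computed from total gene counts. edgeR 4.0.16 (quasi-likelihood test, filterByExpr with a minimum count of 10, TMM) was run on the 6 libraries of each comparison, with Benjamini-Hochberg adjustment over all genes tested and a call at an adjusted p under 0.05. Each SE was derived from the estimate and its F statistic (size over root F). GC content and length, from GENCODE 29 transcripts matched by accession or symbol (687 of 20030 genes unmatched), were corrected per library by splines with 5 degrees of freedom as offsets. Alternatives were DESeq2 1.42.0, other normalizations, no filter, all 9 libraries, a replicate block, limma 3.58.1 on log2(FPKM + 1) or (FPKM + 0.1), and leaving out each library. The scripts were tested on simulated counts. Named genes were members called, the 3 highest and 3 lowest log2 fold changes per class and comparison, the 3 cytosolic and 2 mitochondrial members of highest mean CPM, members of known extra roles, and paralogs. The paralogs RPL39L and RPL7L1, which are no members, are not reported. Further members called with the correction (MRPS15 and MRPS7 among them) and the genes of other lists were named after their values were seen. Between 16970486 and 18209213 counts per library set the precision; 3 counts equal 0.165 to 0.177 CPM. Gene positions are from GENCODE 29, and promoters with their positions from RefSeq GRCh38.p14. Some members are counted but not reported here by name.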

Additional observations from a re-analysis of the deposited data

Results flagged for a closer look

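Signal appeared in the FPKM values of 3 read-through genes whose counts were 0 in all 9 libraries. The lowest FPKM over the libraries was 18.4 for RPL17-C18orf32, 72.1 for RPL36A-HNRNPH2 and 68.3 for RPS10-NUDT3.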

How the results depend on the processing

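Called counts were the values that moved most, and the cause was not tested unless stated. Cytosolic members called in MHCC97L-Src, 0 as reported, were 13 with DESeq2, 25 with all 9 libraries in 1 fit, 11 with the GC and length correction, 1 with that correction and the replicate block, and 0 to 13 when leaving out a library (10 without MHCC97L replicate 1, 13 without MHCC97L replicate 2). In MHCC97L-Oxa they were 11 with DESeq2, 3 with total counts, 6 with all 9 libraries, 17 with the correction, 8 with correction and block, 2 with limma at either pseudocount, and 0 to 64 when leaving out a library (64 without MHCC97L replicate 1, 17 without MHCC97L replicate 2). Between the resistant lines they were 3 with DESeq2, 1 with total counts, 2 with no filter, 2 with the block, 2 with the correction, 2 with both, 1 with limma at either pseudocount, and 0 to 18 when leaving out a library (18 without MHCC97L-Src replicate 3, 4 without MHCC97L-Src replicate 2, 1 without MHCC97L-Oxa replicate 1). Mitochondrial members called in MHCC97L-Src were 1 with DESeq2, 1 with all 9 libraries, 1 with the block, 3 with the correction and 0 to 3 when leaving out a library (3 without MHCC97L replicate 2); in MHCC97L-Oxa 7 with the correction, 3 with correction and block (all lower, with 6.46% and 2.4% of all genes) and 0 to 6 (1 higher and 5 lower, 6 without MHCC97L replicate 1, 3 without MHCC97L replicate 2); between the resistant lines 1 with the correction and 0 to 6 (6 without MHCC97L-Src replicate 3). Alternatives chosen after seeing the data were the correction on coding sequence, with 3 cytosolic calls in MHCC97L-Src and 7 in MHCC97L-Oxa, and the correction without MHCC97L replicate 1, with 13 and 31 cytosolic and 6 and 11 mitochondrial calls and cytosolic medians of 0.37 in both. Leaving out a library, the cytosolic medians were 0.49 to 0.79 in MHCC97L-Src, 0.51 to 0.70 in MHCC97L-Oxa and -0.039 to 0.17 between the resistant lines, the last negative without MHCC97L-Src replicate 2. Between the resistant lines the cytosolic median was 0.021 with total counts and 0.0061 with limma at either pseudocount, and the mitochondrial median 0.023 and 0.022. Direction turned for MRPL23 with the correction (-0.16 in MHCC97L-Src, -0.18 in MHCC97L-Oxa), with correction and block (-0.16 and -0.18), on coding sequence (-0.066 and -0.10) and corrected without MHCC97L replicate 1 (-0.13 and -0.13); for MRPL34 on coding sequence (-0.27 and -0.31) and, in MHCC97L-Oxa, with the correction without MHCC97L replicate 1 (-0.055). In MHCC97L-Src it turned for RPL7 with the correction (0.063), with correction and block (0.059), on coding sequence (0.27) and corrected without MHCC97L replicate 1 (0.030); for RPS27L with the correction (0.33), with correction and block (0.51) and on coding sequence (0.21); and for RPL6 on coding sequence (0.12), corrected without MHCC97L replicate 1 (0.067), and within -0.86 to 0.048 when leaving out a library. In MHCC97L-Oxa it turned for RPS2, corrected without MHCC97L replicate 1 (-0.036), and RPS26, from -0.31 to 0.0045 when leaving out a library. RPL26L1, RPL36AL, RPL36A, RPS10, RPLP2, RPSA, MRPL12, MRPL17 and MRPL24 are given by level only, since their estimates lay near 0 or changed sign with a setting or rest on unusable counts. The replicate numbers do not pair the samples (correlations of same-numbered deviations between -0.63 and 0.41), and the replicate block left the cytosolic calls at 0 against MHCC97L. Depth limits members of low counts, such as MRPL1, at 0.659 to 10.3 CPM.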
